A study of Komagataella phaffii with 15 samples.

Results

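The response of the *flo8Δ* strain of *Komagataella phaffii* to slow growth was followed by RNA-Seq of poly-A RNA from glucose-limited chemostats, in which the rate of glucose feed sets the growth rate. The strain derives from CBS7435, carries a disrupted *FLO8* locus from which part of the promoter and the start of the open reading frame are missing, and had its selection marker removed with Cre recombinase. The sources used here do not say whether it is 1 clone. The *flo8Δ* libraries at S3, grown at 0.05 per h, were set against those at S1, grown at 0.1 per h, with 3 biological replicates each, 6 of the 15 libraries of the series. The wild-type strain CBS7435, with no deletion, gave 3 libraries at S3 and 3 at S1 from the same chemostat regime, and these served to test where the strains differed. Every chemostat ran at the fast rate before it was switched to the slow one, so growth rate and time in culture cannot be told apart. Transcripts entered the comparison with at least 10 normalized counts (reads divided by a size factor for the library) in at least 3 of the 6 *flo8Δ* libraries, and 5307 of the 5341 transcripts did. At the edge of this rule, 5 transcripts reached 10 in exactly 3 libraries and 5 in exactly 2, while 26 reached it in none.

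Flocculins are cell wall glycoproteins that let yeast cells stick to each other and to surfaces. In *Saccharomyces cerevisiae*, Flo8 is a transcriptional activator of flocculin genes, and Flo11 is needed for pseudohyphal growth, in which elongated daughter cells stay attached to their mothers. *K. phaffii* forms pseudohyphae in slow glucose-limited chemostats, and the strain without functional Flo8 does not, so the comparison asks which transcripts still follow the growth rate when the flocculin regulator is missing.

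Between 4163342 and 9765593 reads per library stood behind the S1 values and between 9484760 and 10226631 behind those at S3, with *flo8Δ* S1 replicate 2 as the shallowest. A principal component that held 62.8% of the variance put the S3 libraries between -10.5 and -8.60 and the S1 libraries between 8.16 and 10.4. The transcript of *FLO8* (PP7435_Chr4-0252) was still read in the *flo8Δ* strain, at 34.8, 29.6 and 33.5 TPM (transcript abundance scaled for transcript length and library depth) at S3 and 24.1, 28.5 and 31.9 TPM at S1. Wild-type libraries held 33.2 to 34.4 TPM at S3 and 32.8 to 39.2 TPM at S1. Most of the transcript lies outside the deleted part, so its level does not check the strain label. *FLO11* set the strains apart, with between 0.172 and 0.707 TPM in every *flo8Δ* library and between 2.24 and 79.0 TPM in every wild-type library. The study reported its low level in the *flo8Δ* strain from these same libraries, so it is no separate check of the label.

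Slow growth changed few transcripts of the *flo8Δ* strain by more than 2-fold. A transcript was called where the adjusted p was under 0.05 and the change was over 2-fold, by limma on log2(normalized count + 1) with Benjamini-Hochberg adjustment, and on this scale the change of low transcripts is understated. 17 transcripts were called higher at S3, or 0.32% of those tested, and 12 were called lower, or 0.226%. The rises ran between log2 fold-changes of 1.00 and 2.43 with a median of 1.33, and the falls between -1.95 and -1.10 with a median of -1.37. By adjusted p alone, 782 transcripts (14.7%) were higher and 889 (16.8%) lower, and of these 1671 together 90.9% moved by less than 1.5-fold. The median absolute log2 fold-change was 0.14 over all transcripts tested. In all 29 called transcripts the S3 libraries lay wholly above or wholly below the S1 libraries, as they did in 45.5% of all transcripts tested. The values nearest the 2-fold limit were 1.00 inside and 0.95 outside among the rises, and -1.10 inside and -0.99 outside among the falls. In bulk samples, a change in how many cells carry a transcript and a change in RNA per cell cannot be told apart.

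**Figure D1:**
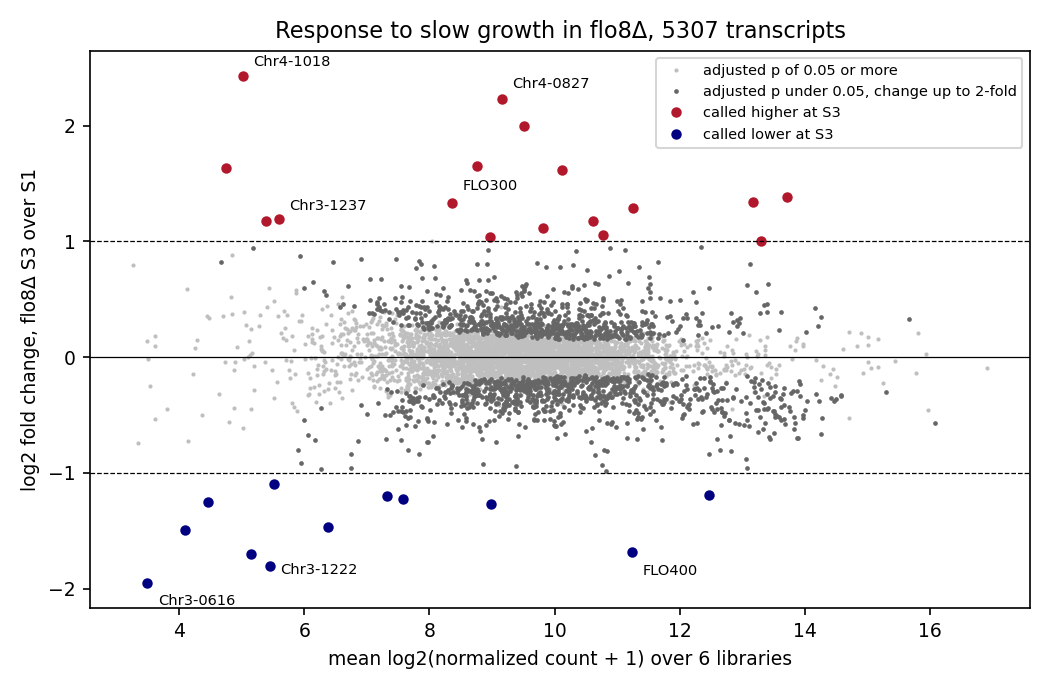
Log2 fold-change of the *flo8Δ* strain at S3 over S1 (vertical axis) against the mean log2(normalized count + 1) over the 6 libraries (horizontal axis), one point per transcript tested. The 17 red and 12 blue points are the called transcripts, the dashed lines mark the 2-fold limits, and the dark grey band between them holds most of the 1671 transcripts with an adjusted p under 0.05.

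The *FLO* family moved in both directions. Of its 13 genes, 11 were tested: *FLO300* and PP7435_Chr3-1237 were called higher and *FLO400* was called lower. By adjusted p alone, 2 were higher (14.7% of all transcripts tested), 5 lower (16.8% of all) and 4 past neither limit, with a median log2 fold-change of -0.34 against 0.00 over all transcripts. The remaining 2, *FLO11* and *FLO100*, had too few reads to be tested.

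**Figure D2:**
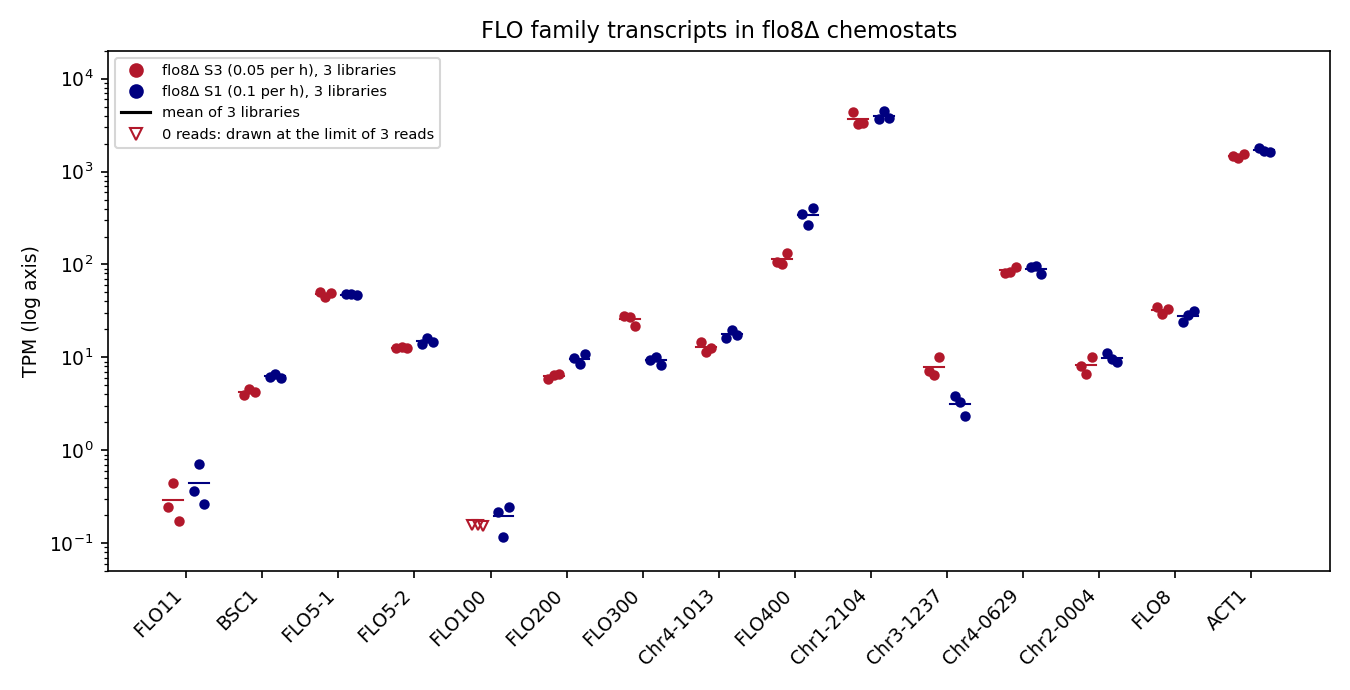
TPM (log axis) of the 13 *FLO* family transcripts, *FLO8* and *ACT1* in each *flo8Δ* library at S3 (red, left of each pair) and S1 (blue, right). Points are libraries, bars are means of 3 libraries, and open triangles stand for 0 reads, drawn at the level of 3 reads. *FLO300* and Chr3-1237 lie higher at S3, *FLO400* lies lower, and *FLO5-1* lies at one level.

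*FLO11* and *BSC1* encode proteins with an N-terminal Flo11 domain. *FLO11* (PP7435_Chr2-0267), the putative homolog of the *S. cerevisiae* adhesin, stayed close to the detection limit at both rates, with 0.244, 0.448 and 0.172 TPM at S3 and 0.363, 0.707 and 0.262 TPM at S1. These levels rest on 7, 13 and 5 reads at S3 and 10, 9 and 8 reads at S1, and the groups overlapped. A difference between the rates was not detectable at this depth. *BSC1* (PP7435_Chr1-1549) had 3.94, 4.54 and 4.26 TPM at S3, against 6.16, 6.67 and 6.0 TPM at S1. All S3 libraries lay below all S1 libraries, and the log2 fold-change of -0.68 (standard error (SE) 0.09, limma adjusted p = 0.00031) was under the 2-fold limit.

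The PA14/GLEYA domain, a carbohydrate-binding domain of fungal adhesins, is shared by 6 members, and these did not move together. *FLO5-1* (PP7435_Chr1-1389) had 50.7, 44.1 and 48.9 TPM at S3 and 47.7, 48.2 and 46.5 TPM at S1. The groups overlapped, with a log2 fold-change of -0.10 (SE 0.06, limma adjusted p = 0.23). Its closest relative, *FLO5-2* (PP7435_Chr3-1228), averaged 12.7 ± 0.224 TPM at S3 and 14.9 ± 1.08 TPM at S1 (SD, n = 3 each). It was lower in all 3 S3 libraries, with a log2 fold-change of -0.34. *FLO200* (PP7435_Chr3-1226) had 5.84, 6.41 and 6.69 TPM at S3, against 9.73, 8.58 and 10.8 TPM at S1. It fell by 0.73 on the log2 scale (SE 0.13, limma adjusted p = 0.0013), and PP7435_Chr4-1013 fell by 0.58 with an average of 12.9 ± 1.49 TPM at S3 and 17.8 ± 1.83 TPM at S1. For *FLO5-2* the limma adjusted p was 0.011 and for PP7435_Chr4-1013 it was 0.0014. *FLO100* (PP7435_Chr1-1587) had 0 reads in each S3 library, which allows up to 0.155 to 0.157 TPM at 3 reads, and 4, 1 and 5 reads at S1. The S1 libraries thus stood at 0.218, 0.118 and 0.246 TPM, too close to that limit for a difference to be shown.

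*FLO300* (PP7435_Chr4-1020) was the only one of the 5 tested PA14 members that was called higher. Its libraries held 27.9, 26.9 and 21.9 TPM at S3, against 9.44, 10.2 and 8.34 TPM at S1. Every S3 library had more than 2 times the level of every S1 library. The log2 fold-change was 1.33 (SE 0.12, limma adjusted p = 1.9e-05), a 2.52-fold rise, and it lay between 1.26 and 1.48 whichever single library was left out.

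*FLO400* (PP7435_Chr4-0865) encodes a protein with a signal peptide, a flocculin repeat and a GPI anchor, the lipid tail that ties surface proteins to the membrane. It had 107, 102 and 132 TPM at S3, against 350, 265 and 403 TPM at S1. The lowest S1 library stood above the highest S3 library by a wide margin. The log2 fold-change was -1.68 (SE 0.12, limma adjusted p = 5e-06), or 3.21-fold lower at S3, and it lay between -1.84 and -1.53 with any single library left out. PP7435_Chr3-1237, which carries a GPI anchor but no signal peptide, had 7.22, 6.49 and 9.98 TPM at S3, against 3.80, 3.29 and 2.32 TPM at S1. It was called higher, with a log2 fold-change of 1.20 (SE 0.22, limma adjusted p = 0.0016) and between 1.01 and 1.33 with any single library left out.

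The remaining members did not pass the test. PP7435_Chr1-2104, the most abundant of the family, had 4328, 3257 and 3342 TPM at S3 and 3648, 4508 and 3777 TPM at S1, and the groups overlapped (log2 fold-change -0.25, adjusted p = 0.14 from limma). PP7435_Chr4-0629 averaged 86.3 ± 6.65 TPM at S3 and 89.6 ± 9.81 TPM at S1 (SD, n = 3 each; limma adjusted p = 0.11). PP7435_Chr2-0004 averaged 8.24 ± 1.74 TPM at S3 and 9.91 ± 1.17 TPM at S1 (limma adjusted p = 0.073). Each of these 3 passed an adjusted p of 0.05 when 1 library was left out. These were S3 replicate 1 for PP7435_Chr1-2104 (-0.39, adjusted p = 0.027), S1 replicate 3 for PP7435_Chr4-0629 (-0.24, adjusted p = 0.029) and S3 replicate 3 for PP7435_Chr2-0004 (-0.50, adjusted p = 0.046), all from limma. *ACT1* (PP7435_Chr3-0993), the actin gene often used to scale qRT-PCR, averaged 1484 ± 68.5 TPM at S3 and 1705 ± 95.3 TPM at S1, or -0.32 on the log2 scale (SE 0.07, limma adjusted p = 0.0040). Of the 8 family members that lie next to telomeres, 7 were tested, with 2 higher, 4 lower and 1 past neither limit by adjusted p, where 14.7% of all transcripts were higher and 16.8% lower. Of the 5 others, 4 were tested, and *FLO400* alone passed. Whether the 2 sets of members differ was not tested.

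Beyond the *FLO* family, the files do not pair the transcript tags with gene names, so the other called transcripts are described by level and number. The largest rise was that of PP7435_Chr4-1018, whose tag comes shortly before that of *FLO300*. It had 4.38, 5.21 and 4.37 TPM at S3, against 0.658, 0.713 and 0.892 TPM at S1. All S3 libraries lay above all S1 libraries, at 83 to 100 reads against 6 to 18 reads, and the log2 fold-change was 2.43 (SE 0.23, limma adjusted p = 2.9e-05). PP7435_Chr4-0827 was better covered, with 73.0, 58.6 and 68.4 TPM at S3, against 12.1, 13.3 and 13.6 TPM at S1. Its rise was 4.70-fold (log2 fold-change 2.23, SE 0.09, limma adjusted p = 1.9e-08). Among the 17 rises, 3 transcripts stood above 1000 TPM at S3 and 4 stayed under 10 TPM at both rates. Their mean levels had a median of 142 TPM at S3, against 57.6 TPM at S1, and the most abundant had 6153 TPM at S3, against 2252 TPM at S1.

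The falls concerned rarer transcripts. The 12 had a median of 5.25 TPM at S3, against 11.4 TPM at S1, and 6 of them stayed under 10 TPM at both rates. The most abundant had 686 TPM at S3, against 1444 TPM at S1. PP7435_Chr3-0616 had the most negative log2 fold-change, with 0.954, 0.824 and 0.352 TPM at S3, against 3.84, 1.34 and 3.92 TPM at S1. The groups did not overlap, but the values rest on 8, 7 and 3 reads at S3 and 31, 5 and 35 reads at S1. It reached 10 normalized counts only in the S1 libraries, the group where it is high, so its log2 fold-change of -1.95 (SE 0.52) is given as a description. Without any 1 of the 3 S1 libraries it no longer had enough counts to be tested. In all, 3 of the 12 falls and 1 of the 17 rises reached 10 normalized counts in fewer than 6 libraries. PP7435_Chr3-1222 fell with more reads behind it, with 1.32, 1.61 and 2.16 TPM at S3, against 6.07, 3.95 and 7.01 TPM at S1 (log2 fold-change -1.80, SE 0.25, limma adjusted p = 0.00030). Of the 29 called transcripts, 13 rises and 8 falls were called whichever single library was left out. All 17 rises and 10 of the 12 falls were also called with both edgeR and DESeq2 without shrinkage of the fold-changes. Shrunken DESeq2 fold-changes kept 11 of the 17 rises and 7 of the 12 falls. They put PP7435_Chr3-1237 at 0.80, under the 2-fold limit. PP7435_Chr3-0616 had too few reads to be tested with edgeR and DESeq2.

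Mitochondrial transcripts gave no call. Of the 16 tags assigned to the mitochondrial genome, 12 were tested, and 0 had an adjusted p under 0.05 with limma, edgeR or DESeq2, where limma gave 31.5% of all transcripts tested. With limma 0 had an unadjusted p under 0.05, and the log2 fold-changes lay between -0.32 and 0.15. Mitochondrial tags took 1.62%, 1.95% and 2.16% of the reads at S3 and 1.99%, 1.95% and 1.57% at S1, so the libraries varied within each rate. The libraries were made from poly-A RNA, and how well this captures mitochondrial transcripts was not tested. The absence of calls thus does not show that their levels were steady.

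The files hold a second measure of the same libraries, the estimated counts of a stranded kallisto run, and for some of the called transcripts it behaved differently. These estimates came to 5.10% to 5.80% of the reads behind the normalized counts in *flo8Δ* libraries, with a median of 2.62% per transcript tested. Splitting the reads by the estimate takes the estimated counts as a part of those reads, which was not tested. In *flo8Δ* S3 replicate 3, PP7435_Chr3-1236 had an estimate of 79 counts, against 77 reads. For *FLO300* the estimate was 129, 168 and 153 counts at S3 and 196, 90 and 210 counts at S1, while the reads less the estimate were 549, 496 and 389 at S3, against 25, 20 and 6 at S1. The rise of *FLO300* thus lay in the reads outside the stranded estimate. With edgeR its log2 fold-change was 4.39 (adjusted p = 7e-06) on the reads less the estimate and -0.56 (adjusted p = 0.0069) on the estimated counts.

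PP7435_Chr4-0827 showed the same split. Its estimate was 106, 86 and 83 counts at S3 and 87, 51 and 133 counts at S1, while the other reads were 1500, 1222 and 1448 at S3, against 170, 79 and 186 at S1. For PP7435_Chr4-1018 the estimate took 1.36% of the reads at S3, against 45.2% at S1. PP7435_Chr3-1237 was the reverse case, with 94.9% of its reads in the estimate at S3 and 90.2% at S1. The estimate was 76, 70 and 103 counts at S3, against 36, 15 and 24 at S1, and the other reads were 3, 2 and 8 at S3 and 4, 1 and 3 at S1, too few to test. Reads in the estimate also made up 92.0% and 96.3% of those of *FLO11* at S3 and S1 in the *flo8Δ* strain, against 0.900% and 2.84% in the wild type.

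The family members therefore differ in which reads carry their level. The estimate took 97.2% of the reads of *FLO5-2* and 99.6% of those of PP7435_Chr4-1013 at S3, against 92.4% and 98.7% at S1. It took 55.4% for *FLO5-1* at S3, against 52.8% at S1, and only 1.95% for *FLO400* at S3, against 0.952% at S1. Among the 29 called transcripts it passed 20% at one rate or both in 6 of the 17 rises and 7 of the 12 falls. Of the 15 rises and 10 falls with enough reads outside the estimate, all 15 rises and 9 falls were called there too. Over all 5249 transcripts tested there, 30 were called higher and 14 lower. In 11 rises and 5 falls the estimate took 20% or less at both rates. For these the reads outside it are nearly those behind the calls, so their calls there are no separate support. On the estimated counts, 5 of the 14 rises and 3 of the 7 falls with enough counts were called, and 3 rises and 1 fall had the opposite sign. Over all 4133 transcripts tested there, 39 were called higher and 28 lower. The falls of *FLO5-2* (-0.27, edgeR adjusted p = 0.13) and *FLO200* (-0.44, edgeR adjusted p = 0.097) did not pass there. On the reads less the estimate they were -1.74 and -1.54 (edgeR adjusted p = 0.00062 and 0.00017). *BSC1*, *FLO400* and PP7435_Chr4-1013 passed on the estimated counts (edgeR adjusted p = 0.00068, 0.039 and 0.0012). Which strand either measure counts was not tested, and reads from a gene and from an overlapping partner on the other strand cannot be told apart in the normalized counts.

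**Figure D3:**
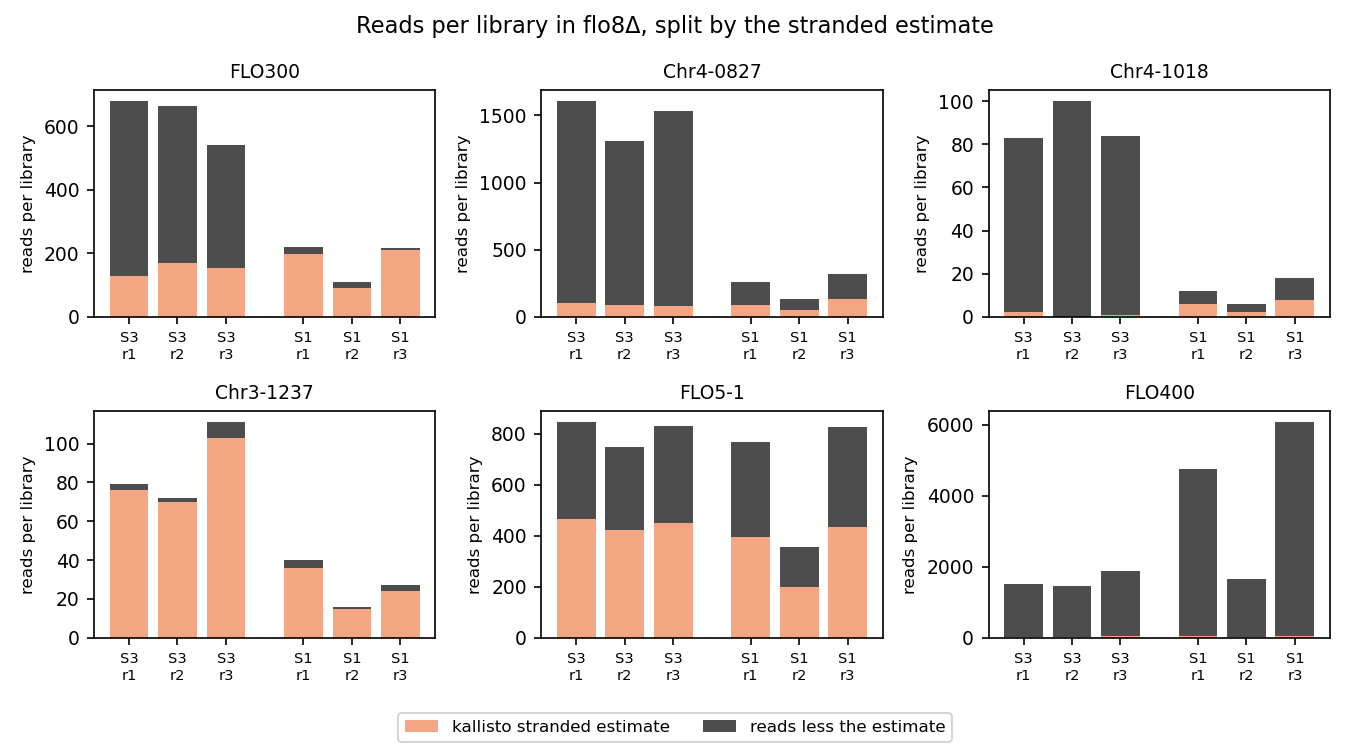
Reads per *flo8Δ* library (vertical axes, each starting at 0) of 6 transcripts at S3 (left 3 bars of each panel) and S1 (right 3 bars), split into the kallisto stranded estimate (orange) and the reads less that estimate (grey). Grey reads carry the rises of *FLO300*, Chr4-0827 and Chr4-1018 and the fall of *FLO400*, and orange ones the rise of Chr3-1237; S1 replicate 2 is the shallowest library over all transcripts.

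In the *flo8Δ* strain 29 transcripts (0.546%) were called at S3 against S1, and in the wild-type strain, put through the same change of growth rate, 76 of 5310 (1.43%). The wild-type number ranged from 46 without S1 replicate 3 to 140 without S1 replicate 2, and stayed above the *flo8Δ* number in each case. 10 rises and 2 falls were called in the same direction in both strains, or 41.4% of the *flo8Δ* calls and 15.8% of the wild-type calls. The 59 transcripts called higher in the wild type had a median log2 fold-change of 0.34 in the *flo8Δ* strain, where 57 were tested, against 1.30 in the wild type. For the 17 called lower in the wild type it was -0.62 in the *flo8Δ* strain, against -1.10 in the wild type. Taken the other way, the 17 *flo8Δ* rises had a median of 1.27 in the wild type, against 1.33 in the *flo8Δ* strain. The 12 *flo8Δ* falls had -0.58 in the wild type, against -1.37. Each set was picked by its values in one strain, so a smaller median in the other can come from the choice alone.

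A direct test of the difference, the interaction of strain and growth rate in limma, called 29 of 5315 transcripts (0.546%). In 11 the change in the *flo8Δ* strain was the more positive one and in 18 the more negative one. Of the 18, 12 were called higher in the wild type, and 13 of the 17 tested in the *flo8Δ* strain moved there by less than 0.5 on the log2 scale. The total was 100 without wild-type S1 replicate 2 and was 19 without wild-type S3 replicate 2. Of the 29 transcripts called in the *flo8Δ* strain, 5 rises and 1 fall were among those with a strain difference.

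*FLO5-1* was among the transcripts with a strain difference. It held one level in the *flo8Δ* strain, whereas wild-type libraries had 628, 657 and 714 TPM at S3, against 1893, 2167 and 2409 TPM at S1. The *flo8Δ* log2 fold-change exceeded the wild-type one by 1.56 (SE 0.11, limma adjusted p = 6.1e-06). With edgeR it was 0.34 on the estimated counts (adjusted p = 0.37) and 1.52 on the reads less the estimate (adjusted p = 4.3e-05). *FLO11* had the largest strain difference of the family. It could be tested for this only because its wild-type libraries, where it is high, had enough counts. Its wild-type libraries had 38.0, 59.3 and 79.0 TPM at S3, against 8.81, 8.57 and 2.24 TPM at S1, and the difference in log2 fold-change was -4.01 (SE 0.74, limma adjusted p = 0.010). With edgeR on the reads it was -3.54 and did not pass (adjusted p = 0.11). It was -2.60 on the reads less the estimate (edgeR adjusted p = 0.81) and -1.89 on the estimated counts (edgeR adjusted p = 0.30). Outside the estimate the *flo8Δ* libraries together held 2 reads at S3 and 1 at S1, too few for that test to decide.

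*FLO400* fell in both strains. Wild-type libraries had 1349, 1815 and 2166 TPM at S3, against 3312, 2669 and 4312 TPM at S1, a log2 fold-change of -0.92 (SE 0.19, limma adjusted p = 0.0097). The difference between the strains, -0.76, did not pass the test (SE 0.25, limma adjusted p = 0.086). Its adjusted p was under 0.05 without wild-type S1 replicate 3 (limma, 0.033) and with replicate number as a block (limma, 0.046). *FLO300* was called higher in both strains. In the wild type it had 11.8, 42.8 and 72.2 TPM at S3, against 9.84, 6.17 and 8.0 TPM at S1, so its S3 libraries spread far more widely than the *flo8Δ* ones. The strain difference of -0.76 (SE 0.62, limma adjusted p = 0.47) passed only without wild-type S3 replicate 1, where it was -1.49 (adjusted p = 0.022).

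PP7435_Chr3-1237 was called in opposite directions. In the wild type it had 8.49, 15.3 and 15.3 TPM at S3, against 27.9, 34.2 and 46.0 TPM at S1, and the strain difference was 2.65 (SE 0.34, limma adjusted p = 0.0012). Outside the stranded estimate, the 3 *flo8Δ* S1 libraries together held 8 reads and the 3 wild-type S1 libraries 898. The transcript whose tag directly precedes it was the other one called in opposite directions. In the estimate alone PP7435_Chr3-1237 was higher at S3 in both strains, with 249 counts at S3 and 75 at S1 summed over the *flo8Δ* libraries and 124 at S3 and 54 at S1 over the wild-type ones. There edgeR gave a strain difference of 0.22 (adjusted p = 0.86). On the reads outside the estimate it was 2.16 (edgeR adjusted p = 0.24). The *flo8Δ* libraries held 13 such reads at S3 and 8 at S1, too few for that test to decide. PP7435_Chr4-0827 rose more in the *flo8Δ* strain than in the wild type, which had 175, 217 and 251 TPM at S3, against 116, 115 and 154 TPM at S1. The strain difference was 1.47 (SE 0.17, limma adjusted p = 0.00058).

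**Figure D4:**
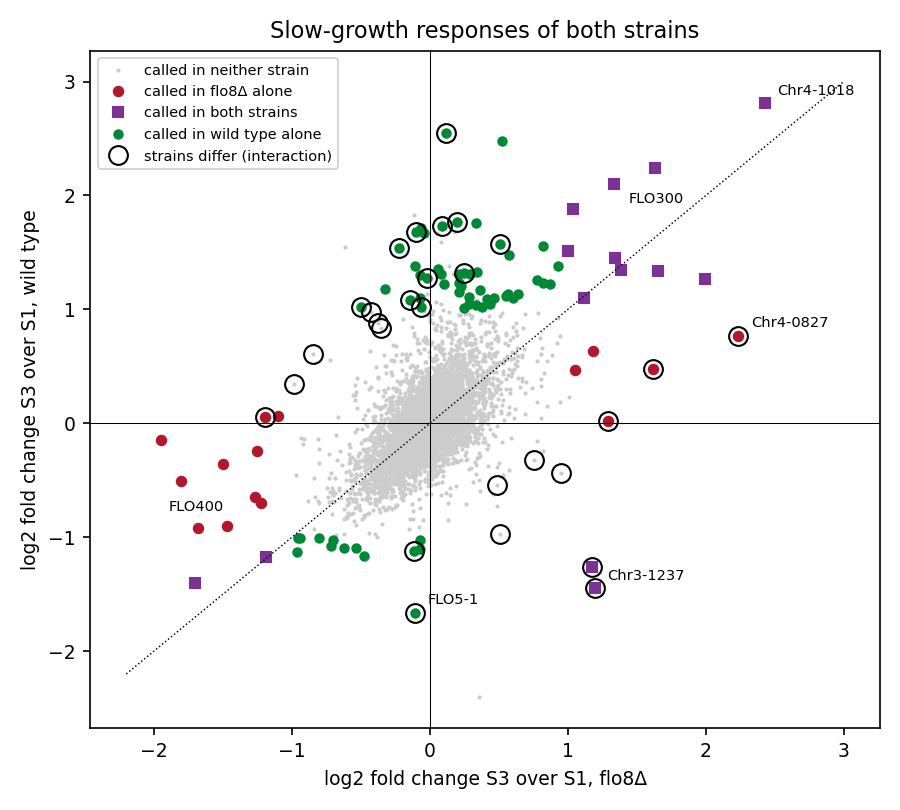
Log2 fold-change of S3 over S1 in the *flo8Δ* strain (horizontal axis) against that in the wild-type strain (vertical axis), one point per transcript tested in both; the dotted line marks equal responses. Squares are the transcripts called in both strains, filled circles those called in one, and open circles those with a strain difference; *FLO11*, not tested in the *flo8Δ* strain, is not drawn.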

How the data were processed

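RNA-Seq of 12 libraries was used: *flo8Δ* and wild type at S3 and S1, 3 biological replicates each, grouped by the sample labels. According to the methods, the authors quantified trimmed single-end reads against CBS7435 transcripts with kallisto 0.43.1 and compared samples with DESeq2 1.14.1. The deposited tables hold normalized counts for 5341 transcripts, a signal of reads divided by a DESeq2 factor for library size and relative effective length. A further 2 tables and 3 libraries of a return to fast growth were not used. The authors also deposited kallisto estimated counts and effective lengths per library from a stranded run; other columns were not used. Whole reads were recovered from the normalized counts: 100% of 128184 recovered values were whole to within 0.01, and 0 differed between tables holding the same library. Depth ran between 4163342 and 10843287 reads. TPM were computed from these reads and the effective lengths. A limit of 3 reads is given for 0 reads and covers counting error only.

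limma 3.58.1 (R 4.3.3, trended variance, pseudocount 1) was fitted within each table, and the strain difference was an interaction over the 12 columns of 2 tables that were normalized separately. Levels of wild-type and *flo8Δ* libraries were not tested against each other. Replicate numbers share no stated chemostat run, and p-values treat S3 and S1 samples as independent. Alternatives used other filters and pseudocounts, a replicate block, edgeR 4.0.16, DESeq2 1.42.0 and each library left out; those on reads less the estimates, the strain difference on estimates, and wild-type libraries left out for the wild-type count were chosen after seeing the data. On simulated counts with 200 changed genes among 5309, limma called 200 and 1 unchanged gene. The changed genes were drawn from well-covered ones and set at log2 sizes of 1.5 or more, with the same dispersion for every gene. Recovery of rare transcripts, and recovery nearer the 2-fold limit, was not tested.

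The named genes were the *FLO* family, *FLO8* and *ACT1* by tag and the largest rises and falls; 2 of each are printed because the 5040 reference entries match 0 of the tags, which also left 12 gene lists by symbol without members, and no sequence could be shown. The study's text prints the tags of *FLO5-1* and *FLO5-2* with their chromosomes exchanged; the printed tag of *FLO5-1* names no transcript of the tables, and the exchanged pair was used because its levels match those listed under these names in the study. Members and lists were chosen with earlier results of these data known.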

Additional observations from a re-analysis of the deposited data

Results flagged for a closer look

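The growth rate response differed between the strains for 29 transcripts by the interaction in limma. Among the named ones, the *flo8Δ* log2 fold-change minus the wild-type one was -4.01 for *FLO11*, 1.56 for *FLO5-1*, 2.65 for PP7435_Chr3-1237 and 1.47 for PP7435_Chr4-0827. For *FLO11* the *flo8Δ* side rests on 5 to 13 reads per library, too few to be tested in that strain alone. For PP7435_Chr3-1237 the stranded estimate took 94.9% of the *flo8Δ* reads at S3 and 90.2% at S1, against 31.2% of the wild-type reads at S3 and 5.63% at S1. On the estimated counts alone the strain difference of this transcript was 0.22 (adjusted p = 0.86) and on the reads less the estimates 2.16 (adjusted p = 0.24), both with edgeR. The *flo8Δ* libraries held too few reads outside the estimates for the latter test to decide.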

How the results depend on the processing

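Deviations of same-numbered *flo8Δ* libraries from their group means correlated at -0.25, -0.11 and -0.28. With 3 libraries per group, this cannot show whether S3 and S1 samples of the same number share a chemostat run. With the replicate block, 17 transcripts were called higher and 12 lower, the same as without it, and 26 had a strain difference. Among the named transcripts the block moved an adjusted p across 0.05 for the strain difference of *FLO400* alone. That difference, -0.76, had a limma adjusted p of 0.046 with the block and 0.086 without it, and was under the 2-fold limit either way. Shrunken DESeq2 fold-changes gave 11 higher and 7 lower, edgeR on the estimated counts 39 and 28, and edgeR on the reads less the estimates 30 higher. Leaving out single libraries gave 14 to 20 higher, 9 to 14 lower, 19 to 100 strain differences and 46 to 140 wild-type calls. The estimated counts turned the log2 fold-change to -0.56 for *FLO300*, 0.24 for PP7435_Chr4-0629 and -0.40 for PP7435_Chr4-0827, and *FLO8* had between -0.023 and 0.211 with single libraries left out, below 0 without *flo8Δ* S1 replicate 1 alone. They also turned the strain difference to -0.39 for PP7435_Chr4-0827 and 0.46 for *FLO400*, and the reads less the estimates turned it to 1.12 for *FLO300*. Over all named transcripts, 376 of 399 values under alternatives kept direction and side of the threshold, 9 lost significance and 7 gained it. In the shallowest library, *flo8Δ* S1 replicate 2, 3 reads correspond to 0.236 TPM of *FLO11* and 0.354 TPM of *FLO100*.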

Other observations

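Several called transcripts carry tags close to those of *FLO* genes next to telomeres. Of the 12 transcripts with tags from that of *FLO200* to PP7435_Chr3-1237, all tested, 2 were called higher and 2 lower in the *flo8Δ* strain (0.32% and 0.226% of all transcripts tested), and 10 had an adjusted p under 0.05 (limma), against 31.5% of all transcripts tested. Of the 3 listed tags from PP7435_Chr4-1018 to just past *FLO300*, 2 were called higher, where 0.32% of all transcripts tested were. Both stretches were chosen after their values were seen, and the files give no coordinates, so whether tag order follows position was not tested. The transcript whose tag directly precedes that of *FLO5-1* was called lower in the *flo8Δ* strain, with 1.58 ± 0.564 TPM at S3 and 4.73 ± 0.485 TPM at S1 (SD, n = 3 each), although *FLO5-1* itself held its level. This neighbour was also called lower in the wild type, with 64.2 ± 0.851 TPM at S3 and 174 ± 19.6 TPM at S1. Its strain difference of -0.30 did not pass (limma adjusted p = 0.50).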
